A study of Mus musculus with 4 samples.

Results

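The 7 immunity-related GTPases (IRG family) named Irgm1, Irgm2, Igtp, Iigp1, Ifi47, Tgtp1 and Tgtp2 were examined in CD11b+Ly6g+ myeloid-derived suppressor cells (MDSCs) sorted from mouse lungs in which a pre-metastatic niche (PMN) had been induced. They were picked by gene symbol out of 54532 genes in the count table. Each of the 7 symbols matched 1 gene, and every member had at least 10 reads in each of the 4 libraries, so none depended on the filter for low counts, which 16369 genes passed by reaching 10 reads in at least 1 library.

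All mice were C57BL/6, 6 to 8 weeks old, and all of them, the control included, received melanoma conditioned medium (MCM) intraperitoneally at 300 μL on each of 10 days and B16F10 melanoma cells by tail vein on day 7. The control mice (Ctrl) had no peptide, and the other 3 groups had TP5, sFD17 or FR17 under the skin each day at 40 μM/kg, starting on day 3, until lungs were taken on day 10. TP5 is free thymopentin, an immune-modulating pentapeptide. FR17 carries TP5 through a linker that the protease MMP2 cuts, on a backbone that, once released in the lung, assembles into a blanket-like sheet, and sFD17 has the same backbone and linker but the residues of TP5 in scrambled order. Each group was 1 library made from the pooled sorted cells of 10 to 12 mice, so spread between mice cannot be seen, no p-value is given, and all intervals are 95% intervals for counting error only.

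IRG proteins are large GTPases that interferons switch on in mouse cells, and they defend a cell from within against bacteria and parasites that live in vacuoles. The regulatory (GMS) proteins Irgm1, Irgm2 and Igtp (also called Irgm3) sit on the cell's own membranes and keep the effector proteins inactive there. The effector (GKS) proteins Iigp1 (Irga6), Ifi47 (Irgd) and the near-identical pair Tgtp1 and Tgtp2 (Irgb6) load onto the vacuole of an invader and help to break it open. Their transcription is driven through 2 kinds of promoter element, the interferon-stimulated response element (ISRE) and the gamma-activated site (GAS).

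Total counts ran from 15543071 in sFD17 to 19638228 in FR17. Neutrophil markers, which the CD11b+Ly6g+ gate selects, had summed levels from 28981 to 42455 scaled CPM (counts divided by library size in units of 1000000 reads and by a scaling factor), against 3792 to 12419 for macrophage markers, and none of the 14 neutrophil markers was at 0. Markers of other cell types were present in every library, and their sums are given with the members' results. In bulk RNA, fewer cells of a type and less RNA per cell cannot be told apart.

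The promoters are shown first because 5 of the 7 members hold letters there that interferon-responsive factors are known to bind. Windows from 250 bases before to 50 bases after the start (RefSeq, build GRCm38.p6) were found for 6 of the 7 members, not for Iigp1. Both strands were searched for the letters GAAANNGAAA (ISRE) and TTCNNNGAA (GAS). The following 60-base stretches run 5′ to 3′ on the strand of the gene, with the ISRE and GAS letters in capitals.
Irgm1, chr11:48871421-48871480, minus strand: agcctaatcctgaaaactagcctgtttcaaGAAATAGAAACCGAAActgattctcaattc
Irgm2, chr11:58214883-58214942, plus strand: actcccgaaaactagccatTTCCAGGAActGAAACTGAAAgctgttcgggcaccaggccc
Igtp, chr11:58199492-58199551, plus strand: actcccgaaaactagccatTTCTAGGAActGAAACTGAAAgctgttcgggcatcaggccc
Tgtp1, chr11:48992294-48992353, minus strand: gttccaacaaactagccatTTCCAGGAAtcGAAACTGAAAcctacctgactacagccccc
Tgtp2, chr11:49064253-49064312, minus strand: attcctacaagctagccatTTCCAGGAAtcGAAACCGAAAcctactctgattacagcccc

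Irgm2, Igtp, Tgtp1 and Tgtp2 each held 1 ISRE and 1 GAS match in their whole window, with the GAS letters first and the ISRE letters a few bases after them, without overlap. In Igtp the GAS ran from −45 to −37 and the ISRE from −34 to −25 relative to the start. Irgm1 held 2 ISRE matches that overlap each other, from −30 to −21 and from −24 to −15, and no GAS match. Ifi47 held neither set of letters in its window. Of 32851 promoter windows of the same length, 3.44% held the ISRE letters, 8.30% the GAS letters and 0.454% both. A match of letters does not show that a factor binds there, and the window of Ifi47 says only that these letters were not in it.

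The members lie in 2 stretches of chromosome 11 and, for Iigp1, on chromosome 18. Irgm1, Tgtp1, Tgtp2 and Ifi47 lie between 48861968 and 49096974 on chromosome 11, and Igtp and Irgm2 between 58199556 and 58222782, in the coordinates of the table (GRCm38.p6). Tgtp1 and Tgtp2 were 99.7% identical over 1245 coding bases, differing at 4 of them, and 73.1% of the 100-base windows in Tgtp1 transcripts and 76.8% in Tgtp2 transcripts also occurred in another gene. Their separate counts are therefore uncertain, since short reads can be split between the copies, and the sum of both is given beside them. Igtp and Irgm2 shared 162 exonic bases on the same strand, Ifi47 shared 111 with Olfr56, an olfactory receptor gene, and Tgtp1 shared 223 with Gm12185, another IRG-like gene. Ifi47 also overlapped Gm12188 on the opposite strand by 106 bases, and whether reads were assigned by strand is not given in the sources used here. Among the regulatory genes the coding sequences were 64.0% to 67.9% identical, and Iigp1 was 58.3% to 58.5% identical to the other effectors.

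The control library set the starting levels. Given as CPM per kilobase of gene before scaling, which allows genes to be compared, Igtp was the highest member in Ctrl at 19.1, followed by Ifi47 at 10.9, Irgm2 at 6.88, Irgm1 at 5.64, Iigp1 at 3.57, Tgtp2 at 2.94 and Tgtp1 at 0.546. Neighbours in this order differed beyond counting error, apart from Iigp1 and Tgtp2, whose ratio was 1.21 (0.975 to 1.52). Igtp stood at percentile 85.9 of the tested genes by level and Tgtp1 at percentile 22.7, so the family ranged from well expressed to scarce in mice without peptide. In TP5 the order had Tgtp2 at 1.51 above Iigp1 at 0.728, and Irgm2 and Irgm1 could not be told apart, with a ratio of 1.04 (0.895 to 1.20). In FR17 the order of Ctrl returned except that Irgm1 at 6.03 and Irgm2 at 5.81 changed places within counting error. In sFD17 Ifi47 led at 107, ahead of Igtp at 65.2, Irgm1 at 25.04, Irgm2 at 15.3, Tgtp2 at 9.26 and Tgtp1 at 5.08, and Iigp1 was last at 1.73. That level put Ifi47 at percentile 97.2 of the tested genes, while Iigp1 was at percentile 47.0. The levels of Iigp1 rest on its deposited length of 3121 bases, where the annotation GENCODE M21 has 5823 exonic bases for it. Its place beside Tgtp2 in Ctrl and FR17 therefore depends on the annotation.

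**Figure D1:**
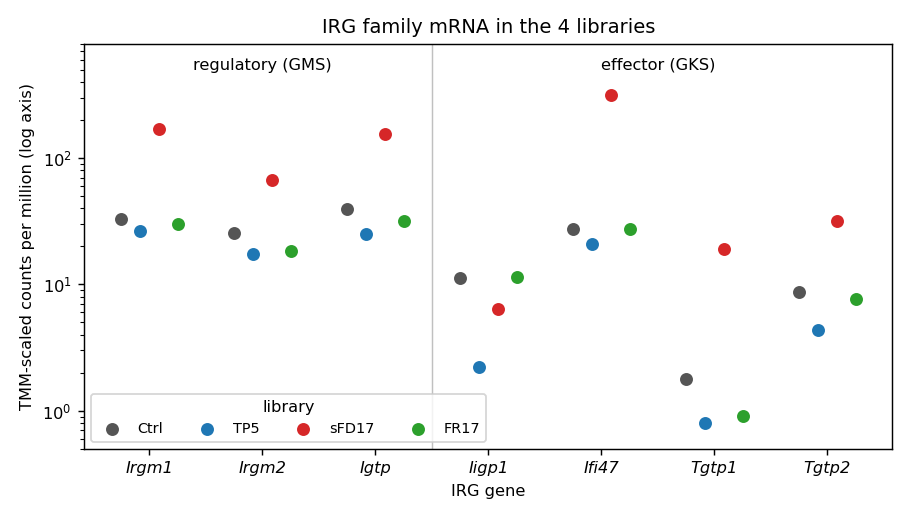
Level of each IRG gene in each library, as CPM scaled with TMM factors (log axis, not corrected for gene length), 1 point per library. For 6 of the 7 genes the sFD17 point lies well above the other 3, while for Iigp1 the sFD17 point at 6.36 lies between TP5 at 2.22 and Ctrl at 11.3.

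In the sFD17 library 6 of the 7 members were at least 2-fold higher than in Ctrl and none was 2-fold lower, where 5.32% of all tested genes were 2-fold higher and 6.47% lower. The median log2 fold change of the 7 members was 1.98, beside −0.03 for all tested genes. This fold, like those that follow, was taken on log2 CPM with trimmed-mean (TMM) scaling and a prior count of 2, and 2-fold was the threshold for a call.

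Among the regulatory genes, Irgm1, which guards membranes of the endosomal and autophagic systems, had 561 reads in Ctrl, 461 with TP5, 2261 with sFD17 and 688 with FR17. On the scaled CPM scale that was 33.2, 26.3, 171 and 30.0, with sFD17 standing alone and the other 3 within a narrow range. Its sFD17 to Ctrl ratio was 5.16 (4.70 to 5.67).
Igtp, a regulator found at the endoplasmic reticulum and on lipid droplets, had 663, 440, 2048 and 732 reads in the same order of libraries, or 39.3, 25.1, 155 and 31.9 scaled CPM. It followed the pattern of Irgm1 with a smaller sFD17 to Ctrl ratio of 3.95 (3.62 to 4.32). Igtp per Irgm1 read was 1.18 (1.05 to 1.32) in Ctrl and 0.906 (0.853 to 0.962) in sFD17.
Irgm2, a regulator that resides at the Golgi, had 435, 304, 879 and 421 reads, or 25.8, 17.3, 66.6 and 18.3 scaled CPM. It showed the smallest increase among the 6, with a ratio of 2.59 (2.30 to 2.91), and its interval did not meet those of Irgm1 or Igtp. Within the library, Igtp per Irgm2 read was 1.52 (1.35 to 1.72) in Ctrl and 2.33 (2.15 to 2.52) in sFD17.

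Ifi47, an effector, had 461 reads in Ctrl, 367 with TP5, 4130 with sFD17 and 628 with FR17, or 27.3, 20.9, 313 and 27.4 scaled CPM. The sFD17 value was more than 10 times each of the others, and its ratio to Ctrl of 11.5 (10.4 to 12.7) ranked 8 among the 16369 tested genes. Tgtp1, an effector of the Irgb6 kind, had 30, 14, 253 and 21 reads, and its sFD17 to Ctrl ratio of 10.8 (7.38 to 16.3) ranked 10. Tgtp2 had 148, 76, 423 and 175 reads, or 8.76, 4.33, 32.1 and 7.62 scaled CPM, with a ratio of 3.66 (3.03 to 4.44). Summed over both copies, the counts were 178, 90, 676 and 196, and the ratio was 4.86 (4.11 to 5.77), so the pair was higher in sFD17 however the reads were divided. The ratio of Tgtp1 to Tgtp2 reads was 0.203 (0.132 to 0.302) in Ctrl and 0.598 (0.510 to 0.701) in sFD17.

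Iigp1 was the exception. This effector, which coats the vacuoles of parasites such as Toxoplasma, had 191 reads in Ctrl, 39 with TP5, 84 with sFD17 and 261 with FR17, or 11.3, 2.22, 6.36 and 11.4 scaled CPM. Ctrl and FR17 were level, sFD17 was below both and TP5 was the lowest. The sFD17 to Ctrl ratio was 0.563 (0.430 to 0.731) with a log2 fold change of −0.82, short of the 2-fold call, in the library where every other member was higher. Without TMM factors, on library size alone, its log2 fold change was −1.03 and passed the call. Reads of Ifi47 per read of Iigp1 were 2.41 in Ctrl, 9.41 with TP5, 49.2 with sFD17 and 2.41 with FR17, a measure that no scaling between libraries can change.

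**Figure D2:**
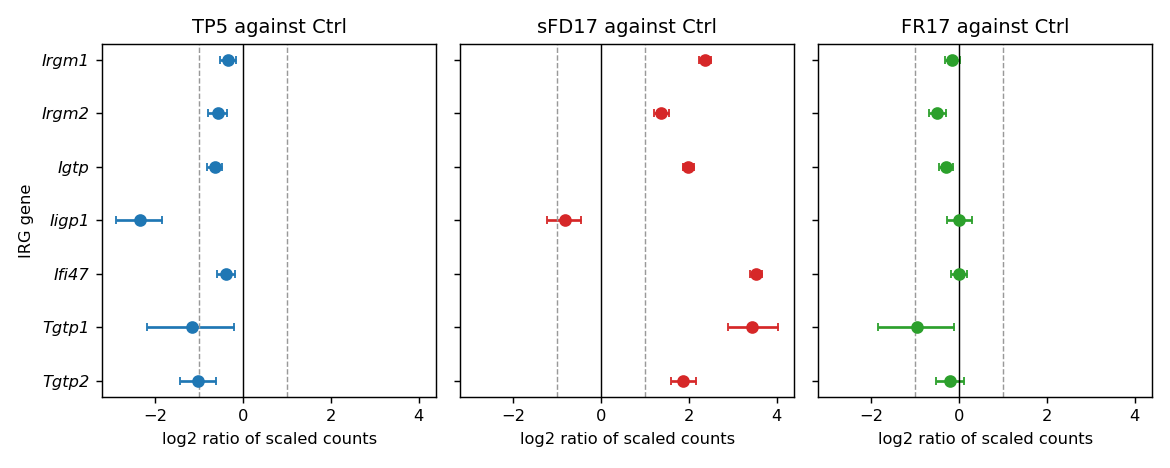
Log2 ratio of scaled counts to Ctrl for each IRG gene in the TP5, sFD17 and FR17 libraries, with bars for the 95% counting interval and dashed lines at 2-fold either way. In sFD17 the ratios run from 0.563 for Iigp1 to 11.5 for Ifi47, in TP5 all 7 lie below 0, and in FR17 none lies beyond the dashed lines.

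The make-up of the family changed with its amount. All 7 genes together had 2489 reads in Ctrl, 1701 in TP5, 2926 in FR17 and 10078 in sFD17, and the summed ratio of sFD17 to Ctrl was 5.18 (4.96 to 5.42). Ifi47 took 18.5% (17.0 to 20.1) of the family's reads in Ctrl and 41.0% (40.0 to 41.9) in sFD17 (Wilson intervals), while Irgm2 went from 17.5% to 8.72% and Iigp1 from 7.67% to 0.833%. Irgm1 kept a similar share, at 22.5% in Ctrl and 22.4% in sFD17. Effector reads per regulatory read were 0.50 (0.460 to 0.544) in Ctrl, 0.412 (0.370 to 0.457) in TP5, 0.589 (0.546 to 0.636) in FR17 and 0.943 (0.906 to 0.980) in sFD17. The sFD17 library had the highest ratio of effector to regulatory reads, and Ifi47 alone supplied 4130 of its 4890 effector reads. Without Ifi47, a calculation added after the values were seen, the ratio was 0.222 in Ctrl, 0.107 with TP5, 0.146 with sFD17 and 0.248 with FR17, so that sFD17 was then below Ctrl and FR17.

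**Figure D3:**
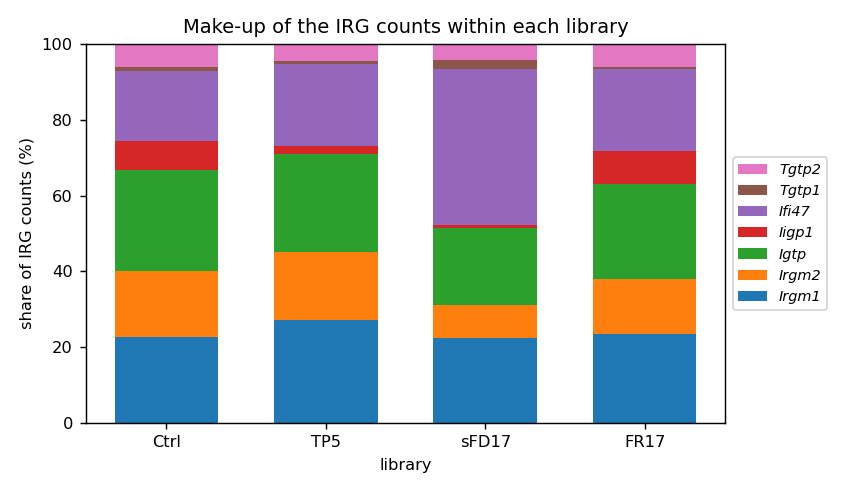
Share of all IRG reads (in percent) that each of the 7 genes takes within each library, stacked to 100%. Ifi47 fills 41.0% of the sFD17 bar against 18.5% of Ctrl, and the Iigp1 segment shrinks from 7.67% in Ctrl to 0.833% in sFD17 and 2.29% in TP5.

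In the TP5 library all 7 members were below Ctrl, and 2 of them, Iigp1 and Tgtp1, were at least 2-fold lower, where 4.99% of tested genes were 2-fold lower and 3.20% higher. Their median log2 fold change was −0.64, beside 0.00 for all tested genes. Iigp1 stood out with a ratio of 0.197 (0.136 to 0.279), ranked 32 from the lowest of all tested genes. Tgtp1 rested on 14 reads against 30, with a ratio of 0.449 (0.220 to 0.874), and Tgtp2 lay just outside the call at −0.997, with a ratio of 0.494 (0.370 to 0.656). The sum of the pair was at 0.487 (0.374 to 0.631) of Ctrl. Only the interval of Iigp1 lay wholly beyond 2-fold. The regulatory genes and the effector Ifi47 were lower by less, with ratios of 0.639 (0.565 to 0.722) for Igtp, 0.673 (0.579 to 0.781) for Irgm2, 0.767 (0.667 to 0.881) for Ifi47 and 0.791 (0.698 to 0.897) for Irgm1, and the family sum was at 0.658 (0.618 to 0.700) of Ctrl. In the same library the summed markers of fibroblasts were at 0.617 times Ctrl, of NK cells at 0.710, of endothelium at 0.744, of macrophages at 0.761 and of T cells at 0.882. Those of monocytes were at 1.05, of neutrophils at 1.09, of B cells at 1.37, of dendritic cells at 1.39, with 3 of 10 at least 2-fold higher, and of epithelium at 1.47. The part of these markers in the members' TP5 values was not tested.

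In the FR17 library no member was 2-fold higher or lower than in Ctrl, against 3.92% of tested genes higher and 3.58% lower. The members' median log2 fold change was −0.20, beside 0.02 for all tested genes. Ifi47 and Iigp1, the members that were farthest apart in sFD17, were both level with Ctrl, at ratios of 1.00 (0.887 to 1.13) and 1.01 (0.831 to 1.22). Irgm2 at 0.712 (0.621 to 0.816), Igtp at 0.812 (0.730 to 0.904) and Tgtp1 at 0.515 (0.280 to 0.930) were lower beyond counting error, and the intervals of Irgm1 and Tgtp2 held 1. Scaled by library size alone, these 3 genes were nearer to Ctrl, with log2 fold changes of −0.24, −0.05 and −0.66 for Irgm2, Igtp and Tgtp1. Irgm1 was then at 0.10, above Ctrl. The summed Tgtp pair was at 0.810 (0.658 to 0.998), above the value of Tgtp1 alone. Beside them, the summed markers of NK cells were at 3.01 times Ctrl, of T cells at 1.89, of endothelium at 1.28, of macrophages at 1.24, of B cells at 1.19, of epithelium at 1.19, of dendritic cells at 1.06, of fibroblasts at 1.03, of neutrophils at 0.888 and of monocytes at 0.876. Their part in the members' values was not tested here or in the peptide pairs that follow.

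The peptides were then set against each other at the same dose and days, in 3 pairs. FR17 and sFD17 differ in the order of the TP5 residues. Between them 6 of 7 members were at least 2-fold lower in FR17 and none was 2-fold higher, where 10.8% of tested genes were lower and 11.3% higher. The members' median was −2.28, beside 0.07 for all tested genes. The fold in favour of sFD17 was 11.4 (10.5 to 12.5) for Ifi47, 5.72 (5.25 to 6.23) for Irgm1, 4.87 (4.47 to 5.30) for Igtp, 3.63 (3.23 to 4.09) for Irgm2 and 6.00 (5.11 to 7.07) for the summed Tgtp pair. Iigp1 went the other way, with FR17 at 1.79 (1.39 to 2.31) times sFD17, short of the 2-fold call with TMM scaling and past it at a log2 difference of 1.28 on library size alone. In the same pair FR17 had NK cell markers at 3.40 times sFD17, with 9 of 10 at least 2-fold higher, macrophage markers at 3.27, with 10 of 14, and T cell markers at 2.88, with 8 of 12. The sums of neutrophil markers at 0.683, monocyte markers at 0.639 and epithelial markers at 0.597 were lower in FR17. At least 2-fold lower were 2 of 14 neutrophil, 4 of 10 monocyte and 0 of 10 epithelial markers. At least 2-fold higher were 0, 1 and 2 of them.

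FR17 and TP5 share the TP5 residues, free in one and carried on the assembling backbone in the other. Only Iigp1 was at least 2-fold higher in FR17 and no member was 2-fold lower, where 7.04% of tested genes were higher and 2.88% lower. The Iigp1 ratio of FR17 to TP5 was 5.11 (3.64 to 7.36). In this pair NK cell markers were at 4.24, with 9 of 10 at least 2-fold higher, T cell markers at 2.14, endothelial markers at 1.72, with 7 of 10, fibroblast markers at 1.67, with 4 of 10, and macrophage markers at 1.63. B cell markers were at 0.871, monocyte markers at 0.834, neutrophil markers at 0.811, epithelial markers at 0.807 and dendritic cell markers at 0.766. All 14 neutrophil markers and 9 of 10 dendritic cell markers were lower in FR17. The other members had ratios from 1.06 (0.911 to 1.23) for Irgm2 to 1.76 (1.34 to 2.33) for Tgtp2. The intervals of Irgm2 and of Tgtp1, at 1.15 (0.556 to 2.44), held 1 and those of the other 4 did not. The summed Tgtp pair was at 1.66 (1.29 to 2.16), and the median log2 difference was 0.34, beside −0.02 for all tested genes.

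sFD17 and TP5 differ both in the backbone and in the residue order. All 7 members were at least 2-fold higher in sFD17 than in TP5, where 6.74% of tested genes were higher and 5.64% lower, and the median log2 difference was 2.70, beside −0.04. The ratio was 14.96 (13.4 to 16.7) for Ifi47 and 2.86 (1.94 to 4.30) for Iigp1, the least among the members and the only one whose interval reached below 2-fold. Macrophage markers in this pair were at 0.499, T cell markers at 0.743, dendritic cell markers at 0.796 and B cell markers at 0.799. Fibroblast markers were at 1.48, endothelial at 1.45, epithelial at 1.35, monocyte at 1.305, NK cell at 1.25 and neutrophil markers at 1.19. The 3 comparisons with Ctrl share 1 control library, and the peptide pairs share libraries with each other, so they do not check one another.

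Other genes of the IRG kind were looked at next to see how far the split between Iigp1 and the rest extended. Of 10 further IRG-like genes, 9 passed the low-count filter. In sFD17 4 of them were at least 2-fold higher than Ctrl and 2 were lower, with a median log2 fold change of 0.49. Gm12250, which encodes the effector Irgb10, had 90 reads in Ctrl, 55 with TP5, 570 with sFD17 and 105 with FR17, close to the pattern of Ifi47, with a log2 fold change of 2.99 in sFD17. Its promoter window held 2 ISRE matches and 1 GAS match.
F830016B08Rik, an IRG-like gene, had 38, 5, 4 and 23 reads, and Gm4951, another, had 47, 17, 14 and 105. Both were more than 2-fold below Ctrl in TP5 and sFD17, at −2.57 and −2.50 for the former and −1.42 and −1.30 for the latter, the direction of Iigp1 in those libraries. In FR17, where Iigp1 was level with Ctrl, they were at −1.08 and 0.69.

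Seen by position, a grouping that was made after the values were known, all 11 tested IRG and IRG-like genes on chromosome 11 were above Ctrl in sFD17, 10 of them by at least 2-fold, from 0.35 for Gm5431 to 3.51 for Ifi47 on the log2 scale. All 3 tested genes on chromosome 18, Iigp1, F830016B08Rik and Gm4951, were below Ctrl in sFD17, from −2.50 to −0.82, and all 3 were at least 2-fold lower in TP5. On chromosome 7, Irgq and Irgc1, relatives not known to be induced by interferon in the same way, were at −0.11 and 0.49 in sFD17. The fourth gene of the chromosome 18 group, Gm4841, had 3, 0, 0 and 6 reads and was not tested.

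The guanylate-binding proteins, a second family of interferon-induced GTPases that acts beside the IRGs, divided in a like manner in sFD17. Of 9 tested, 5 were at least 2-fold higher, among them Gbp2 at 3.59 and Gbp5 at 3.54, and 1 was lower, Gbp2b at −1.82. In TP5 all 9 were below Ctrl, with a median of −0.74, and 3 were at least 2-fold lower, Gbp6 at −1.61, Gbp4 at −1.48 and Gbp8 at −1.14, while in FR17 none was past 2-fold.

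Upstream of the family, the ligand and its receptor were measured as well. Ifng, encoding interferon-γ, had 15 reads in Ctrl, 17 with TP5, 23 with sFD17 and 56 with FR17, or 0.888, 0.969, 1.74 and 2.44 scaled CPM. On the log2 scale TP5 was 0.11, sFD17 0.89 and FR17 1.35 above Ctrl. Ifnb1, encoding interferon-β, had 47, 18, 19 and 76 reads, and on scaled CPM its libraries stood in the same order as those of Iigp1. For Ifnb1, however, TP5 and sFD17 were within counting error of each other, and for both genes FR17 and Ctrl were too. The other 8 interferon ligand genes listed had at most 2 reads in any library and were not tested. NK cell markers, from cells that make interferon-γ, summed to 41.0 scaled CPM in Ctrl, 29.1 with TP5, 36.3 with sFD17 and 123 with FR17, with all 10 at least 2-fold above Ctrl in FR17. T cell markers were at 62.6, 55.2, 41.0 and 118. Their part in the Ifng counts was not tested.

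The receptor chains differed little. Ifngr1 was at 0.05, 0.00 and −0.05 on the log2 scale in TP5, sFD17 and FR17 against Ctrl, and Ifngr2 at −0.12, 0.14 and −0.10. The kinases downstream were within a narrow range in TP5 and sFD17, with Jak1 at −0.09, 0.28 and −0.46 and Jak2 at 0.17, 0.31 and −0.50 in the same order. Irf1, an interferon-induced transcription factor, was at −0.53, 0.68 and −0.48, highest in sFD17 but short of 2-fold. In sFD17 2 of the 14 genes of this list were at least 2-fold higher, Nlrc5 at 2.15 and Stat2 at 2.03, and none was lower, with a list median of 0.37. Neither TP5 nor FR17 had a gene of the list past 2-fold, with medians of −0.14 and −0.36.

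Of 7 negative feedback genes, 2 were at least 2-fold higher in sFD17, Usp18 at 2.66 and Cish at 1.15. Socs1, which blocks the kinases of the receptor, was at 0.20, 0.84 and −0.44 in TP5, sFD17 and FR17. Among 6 tested inducers of interferon-γ, Il12a at 1.51 and Il27 at 1.32 were at least 2-fold higher in sFD17, from 28 to 65 and from 75 to 149 reads, while Il18 was at −0.67. In TP5 Il12b, at 1.17 with 131 reads against 55, was the 1 gene of this list past 2-fold, and in FR17 none was.

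The IRG genes respond to both classes of interferon, so 2 lists of other targets were set beside them. Of 22 targets that favour type I interferon, 21 were at least 2-fold higher in sFD17 with none lower and a median of 2.00, beside the IRG median of 1.98. The list's median was −0.19 in TP5, with 1 gene 2-fold lower, where the IRG median was −0.64, and −0.51 in FR17, with 20 of 22 below Ctrl and 1 of them 2-fold lower, where the IRG median was −0.20. Ifit2 at 3.98, Ifit3 at 3.47 and Ifit3b at 3.28 changed most. Of 14 tested targets that favour interferon-γ, 5 were at least 2-fold higher and none lower, with a median of 0.78. Nos2, inducible nitric oxide synthase, had 13, 10, 134 and 12 reads and a log2 fold change of 3.54, Cd274 (PD-L1) was at 1.43 and Tap1 at 1.17, while Cd74 was at −0.41 and Ciita at −0.03. In TP5 1 of these 14 genes was at least 2-fold lower, Cxcl9 at −1.20, and in FR17 none was past 2-fold in either direction.

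Transcripts of the machinery that governs where IRG effectors load were examined last. Of 10 tested genes of the ATG conjugation machinery, which the cell needs to bring effectors onto vacuoles, none was past 2-fold in any of the 3 peptide libraries against Ctrl, with medians of −0.22 with TP5, −0.10 with sFD17 and −0.27 with FR17. Of 9 ubiquitin and adaptor proteins found at IRG-coated vacuoles, 1 was past 2-fold, Trim21 at 1.01 in sFD17.

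**Figure D4:**
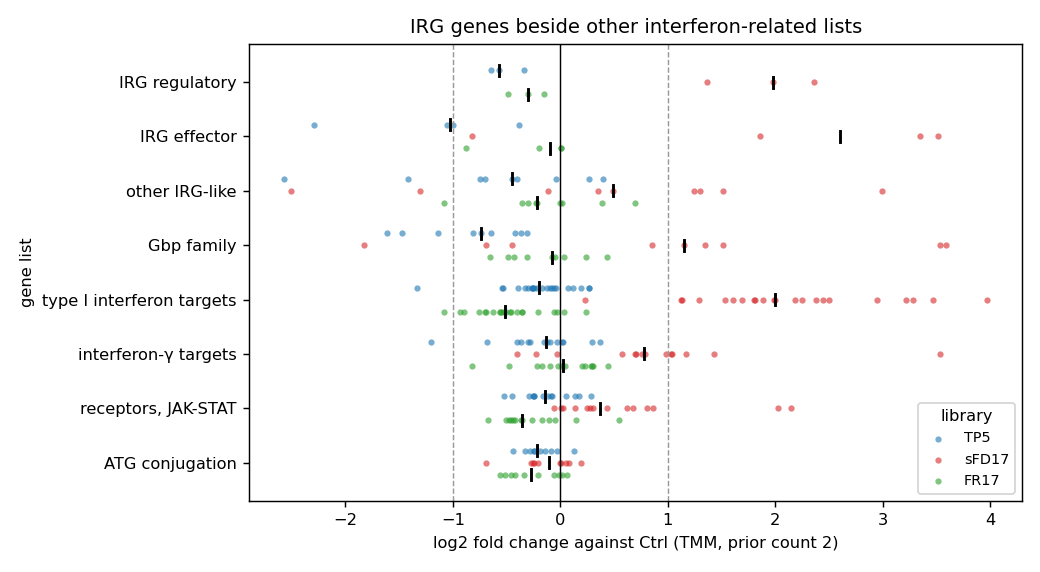
Log2 fold change against Ctrl of every tested gene in 8 lists, coloured by library, with black ticks at each list's median and dashed lines at 2-fold. In sFD17 the IRG genes spread over the range of the type I interferon targets (median 2.00), with Iigp1 apart at −0.82, while the ATG conjugation genes stay between the dashed lines in all 3 libraries.

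The genes whose 3 log2 fold changes against Ctrl lay nearest to the median profile of the members, out of 9795 genes with at least 50 reads in every library, were Oas1g, Nlrc5, Il18bp, Stat2, Gbp7, Oas1a, Parp12, Rtp4, Parp10 and Cxcl10, at Euclidean distances from 0.29 to 0.63. All 10 were higher in sFD17, from 1.51 for Gbp7 to 2.39 for Cxcl10, and all were lower in TP5. These directions follow largely from the choice of genes by nearness to the profile. The median profile took its TP5 and sFD17 values from Igtp itself, which therefore lay close to it by construction, at 0.10. Its FR17 value came from Tgtp2, whose distance is thus also partly set by construction. Measured the same way, Tgtp2 lay at 0.37, Irgm1 at 0.49, Irgm2 at 0.68, Ifi47 at 1.57, Tgtp1 at 1.58 and Iigp1 at 3.25. Iigp1 thus lay farthest from it, with the opposite direction in sFD17.

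The same measure was then taken from Iigp1 itself, a step added after its values were seen, over 11988 genes with at least 50 reads in 1 library. The nearest gene was Fendrr, a long non-coding RNA known from lung mesenchyme, with 52, 11, 20 and 75 reads at a distance of 0.25. It was followed by Scn7a, Sox17, Ghr, Serpina3n, Ushbp1, Sox7, Gbp6, P4ha2 and Podn, at 0.61 to 0.80. Sox17 and Sox7 encode transcription factors known from endothelium, and Podn a matrix proteoglycan, and Gbp6 was the only guanylate-binding protein among the 10. Sox17 had 57, 11, 38 and 68 reads, and was at −2.24 in TP5 and −0.22 in sFD17 on the log2 scale. Low levels of these genes in TP5 follow from their choice by nearness to Iigp1.

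Summed marker levels were set beside Iigp1. Fibroblast markers summed to 321 scaled CPM in Ctrl, 198 with TP5, 292 with sFD17 and 330 with FR17, and 4 of 10 were at least 2-fold lower in TP5 and 2 of 10 in sFD17. Their sum was at 0.617 of Ctrl in TP5 and 0.912 in sFD17, against 0.197 and 0.563 for Iigp1. Their order of libraries was the same as that of Iigp1. NK cell markers, at 41.0, 29.1, 36.3 and 123, also stood in that order, but in FR17 they were at 3.01 times Ctrl while Iigp1 was level with it, and 1 of 10 in TP5 and 3 of 10 in sFD17 were at least 2-fold lower. Endothelial markers were at 199, 148, 215 and 255, with 5 of 10 at least 2-fold lower in TP5, but in sFD17 they were above Ctrl, unlike Iigp1. Macrophage and T cell markers were lowest in sFD17 and not in TP5. Macrophage markers were at 9996, 7602, 3792 and 12419, with 14 of 14 below Ctrl in sFD17, 9 of them by at least 2-fold, and 1 of 14 at least 2-fold lower in TP5. None of these markers was at 0 in any library, and their part in the Iigp1 values was not tested. For the other 6 members, which were higher in sFD17, the lists with a higher sum there were neutrophil markers at 1.301 times Ctrl, monocyte markers at 1.37, epithelial markers at 1.99, dendritic cell markers at 1.10, B cell markers at 1.09 and endothelial markers at 1.08. Most of the epithelial sum came from Scgb1a1, at 1.11 on the log2 scale. Of the 10 monocyte markers, Plac8 at 2.45, Ly6c2 at 1.42 and Treml4 at 1.12 were at least 2-fold higher in sFD17. Another 4 were below Ctrl, F13a1 at −1.91, Ccr2 at −0.27, Cx3cr1 at −0.21 and Csf1r at −0.07. Nr4a1 supplied 45776 of the 96690 monocyte marker reads in sFD17. The part of these markers in the members' values was not tested.

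**Figure D5:**
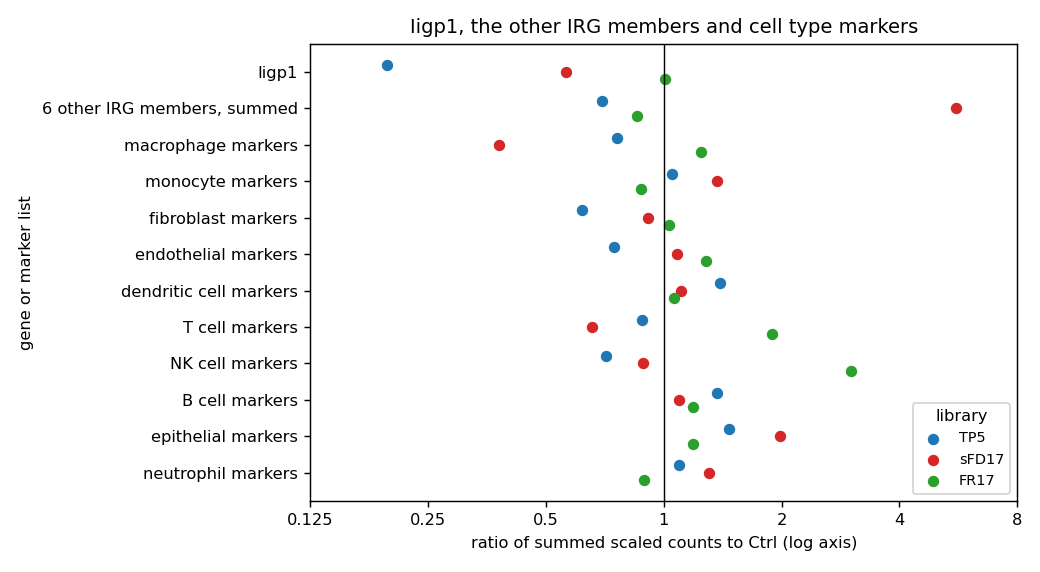
Ratio to Ctrl (log axis) of Iigp1, of the summed other 6 IRG members and of 10 summed cell type marker lists, 1 point for each peptide library. In sFD17 the 6 members stand at 5.57 and Iigp1 at 0.563, with the marker lists between 0.379 for macrophages and 1.99 for epithelium, and in TP5 Iigp1 at 0.197 lies below every marker list.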

How the data were processed

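The authors deposited 1 table of read counts per gene for the 4 libraries, with gene length, position and symbol. Per the submitters' processing notes, the tools included HISAT2 2.0.5, StringTie 1.3.3b, featureCounts 1.5.0-p3 and edgeR 3.18.1, with the build GRCm38.p6. The authors name a directional RNA library kit. The strand setting used in counting and the treatment of reads that match several genes are not given in the sources used here. The members and gene lists were chosen with earlier results of these data known.

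Fold changes were differences of log2 CPM (counts scaled to 1000000 per library) from edgeR 4.0.16 with TMM factors (Ctrl 0.986, TP5 1.02, sFD17 0.849, FR17 1.17) and a prior count of 2, over the 16369 genes with at least 10 counts in 1 library. With 1 library per group no model was fitted and no test was run, and a gene was called at 2-fold. Intervals for ratios were exact (Clopper-Pearson) from each pair of counts and those for shares were Wilson, at 95%. Levels between genes used CPM per kilobase from the deposited gene length. The scaling and fold-change steps were tested on simulated data, and the other steps were not.

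Named genes were the 7 members, the main interferon-γ pathway genes (1 of which is not reported here), from each pathway list up to 3 genes with the largest changes among those with at least 50 counts, and the 10 genes nearest to the members' median profile. Other genes are named as contrasts, as IRG relatives or as Iigp1's nearest genes, and were chosen after values were seen. Gene overlap and coding identity came from GENCODE M21, in which 54409 of 54532 gene identifiers matched and 53499 had the same start and end, Iigp1 not among the latter. Promoters came from RefSeq. Protein sequences were not used here.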

Additional observations from a re-analysis of the deposited data

How the results depend on the processing

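With 1 library per group, no library could be left out and no spread between mice could be measured. No paired analysis was possible because each group has 1 library. Beside TMM, the values were computed with DESeq2 1.42.0 size factors, library size alone, a prior count of 0.5, no filter, at least 10 counts in every library, summed Tgtp1 and Tgtp2 counts, and an interval rule. No called member changed direction. Requiring the whole counting interval beyond 2-fold left 1 member in TP5 against Ctrl in place of 2, and 6 in sFD17 against TP5 in place of 7, losing Iigp1. Tgtp2 in TP5 crossed the 2-fold line, which made the count 3, at −1.01 with the prior count of 0.5 and at −1.001 with 10 counts in every library.

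Library size alone moved the median of all tested genes to −0.23 in sFD17 and 0.26 in FR17 against Ctrl, and the members' medians moved with it, to 1.76 in sFD17 against Ctrl, 0.044 in FR17 against Ctrl, −1.82 in FR17 against sFD17, 0.54 in FR17 against TP5 and 2.43 in sFD17 against TP5. Under it Iigp1 passed 2-fold in sFD17 against Ctrl (−1.03) and in FR17 against sFD17 (1.28). With no filter the median of FR17 against sFD17 was −2.17, and with the Tgtp pair summed it was −2.39, and 2.12 in sFD17 against Ctrl. Effector to regulatory ratios in Ctrl, TP5, sFD17 and FR17 were 0.567, 0.504, 1.17 and 0.679 per kilobase of gene, and 0.393, 0.337, 0.812 and 0.483 without Tgtp1 and Tgtp2, with sFD17 highest both times. Without Ifi47, added after the data were seen, they were 0.222, 0.107, 0.146 and 0.248, and sFD17 was no longer highest. Of the counts, medians and ratios under these alternatives, 69 moved by less than counting error or, for counts of members, by at most 1.5 times, and 21 moved further.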
